A study of Sus scrofa with 36 samples.

Results

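The enzymes of the urea cycle and of tyrosine and tryptophan breakdown were followed in the liver of 36 pigs. The gene set held 9 genes: CPS1, OTC, ASS1, ASL and ARG1 of the urea cycle, GLUL of ammonia capture, and TAT, HPD and TDO2 of amino acid breakdown. Members were found on an Agilent pig array of 60-base probes as non-control probes named for one of these genes by gene symbol, RefSeq accession or description. A probe was kept when the scanner software called it well above background on at least 6 of the 36 arrays. This gave 26 probes, of which 24 were kept, and these stood for 6 genes: OTC (4 kept probes), ASS1 (1), ARG1 (5), GLUL (8), HPD (5) and TDO2 (1). The 24 probes were among 44796 kept probes and the 6 genes among 11219 genes with a kept probe. CPS1, ASL and TAT were matched by no probe and were not analysed here. The remaining 2 probes, 1 of ARG1 and 1 of TDO2, were well above background on 0 of 36 arrays.

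The animals were castrated male growing pigs of 3 genetic groups: Large White (LW, a breed kept for intensive production), Creole (CR, a local pig of the Caribbean) and the cross between them (F1), each with 12 animals. Within each breed 6 animals were killed at thermoneutrality (TN, 24 °C) and 6 after heat stress (HS, up to 5 days). For HS, sample labels read 30 °C but the protocol text reads 32 °C, and the short names are therefore used. According to the methods the pigs formed 3 blocks of littermates per breed and the HS animals were slaughtered after the TN animals. Each pen held pigs of a single breed and was slaughtered at a single temperature, so litter lies within breed and pen within breed and temperature. Heat, slaughter day (with the age gained meanwhile) and the lower feed intake that the study reports under HS cannot be told apart. The p-values measure the spread between these animals with littermates and pen mates treated as independent.

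Amino acids that are not used for protein lose their nitrogen in the liver. Most of this nitrogen is turned into urea: carbamoyl phosphate (made by CPS1) is joined to ornithine by OTC, ASS1 and ASL add a second nitrogen from aspartate, and ARG1 releases urea and returns ornithine. GLUL binds ammonia that escapes the cycle into glutamine and is normally restricted to hepatocytes around the central vein, whereas urea cycle enzymes are most abundant toward the portal vein. TAT and then HPD carry tyrosine toward homogentisate, and TDO2 opens the ring of tryptophan, the first and controlling step of the kynurenine pathway. Several of these genes are classical targets of glucagon, glucocorticoids and protein supply.

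All values are log2 signals after quantile normalization between arrays. They compare animals for 1 probe and do not rank genes against each other, since probes differ in binding. For each gene, the kept probe with the highest mean signal is called probe 1, and the others are numbered by falling signal. The arrays filled 5 slides, each shared equally by both temperatures. The labelled tissue was checked with 11 hepatocyte markers, of which 10 were measured, and the mean log2 signal of these in an animal lay between 17.42 and 17.64. On the first principal component of all kept probes (18.6% of the variance), 5 animals lay nearer the median of another breed than that of their own. LW animals were compared with CR, and CR and F1 animals with LW. The 5 were LW TN replicates 1 and 6 (-4.83 and -3.04), F1 TN replicate 3 (-18.1), and F1 HS replicates 1 and 2 (-17 and -21.3). All lay between the other LW animals (highest -24.8) and the lowest CR animal (2.35). Below they are called the animals that lay with another breed. This short name means only nearer to that breed's median, since they lay between the breeds. They were kept under their labels. A breed difference of each member gene is also given without them, while values of single pathway genes include them. The 5 animals were picked on these same arrays, along a component on which LW and CR lay apart. Leaving them out therefore favours larger breed differences, and values and calls without them are descriptions only.

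No member gene was called for heat stress. In the limma fit 0 of 24 probes passed an adjusted p of 0.05 for HS compared with TN, where 0.857% of all probes tested did (384 of 44796, 0.435% higher and 0.422% lower in HS), and 3 of the 24 had an unadjusted p under 0.05. Differences of the 24 probes ranged from -0.49 to 0.17 on the log2 scale. No probe was called within LW, CR or F1 or for the interaction of breed and temperature. In all probes tested, 0 were called within LW, 0 within CR, 4 within F1 (0.00893%) and 0 for the interaction. Unadjusted p-values under 0.05 were found for 1 of the 24 probes within LW, 0 within CR, 6 within F1 and 0 for the interaction. The 6 within F1 were the 5 probes of ARG1, which moved together, and the probe of TDO2. The share of all probes with such p-values is not given here or below, so these counts are descriptions only. A p that misses the threshold does not show equal levels, and intervals are therefore given for each gene.

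HPD, OTC and ASS1 had probes called higher in CR than in LW, and HPD and ASS1 also in F1. Calls of HPD against LW held in every alternative but rested on 1 of its 4 sequences, whereas that of ASS1 in CR was lost in 32 of 53 alternatives and that of OTC probe 1 in 16 of 53. CR exceeded LW at 5 of 24 probes and was lower at 0, against 26.5% of all probes called in this comparison (13.6% higher and 12.9% lower in CR). F1 exceeded LW at 3 of 24 probes, against 18.3% of all probes (9.13% higher and 9.22% lower in F1). F1 and CR were called apart at 0 of 24 probes, against 1.5% of all probes (0.761% higher and 0.743% lower in F1), and 2 of the 24, both of OTC, had an unadjusted p under 0.05 in limma. F1 exceeded the mean of its parent breeds at 1 of 24 probes, against 1.13% of all probes (0.464% higher and 0.661% lower). Counted by gene on probe 1, 3 of 6 members were called for CR compared with LW, against 26.0% of all named genes, and 2 of 6 for F1 compared with LW, against 17.4%. With 6 genes these shares are given as counts only. All these comparisons share animals.

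**Figure D1:**
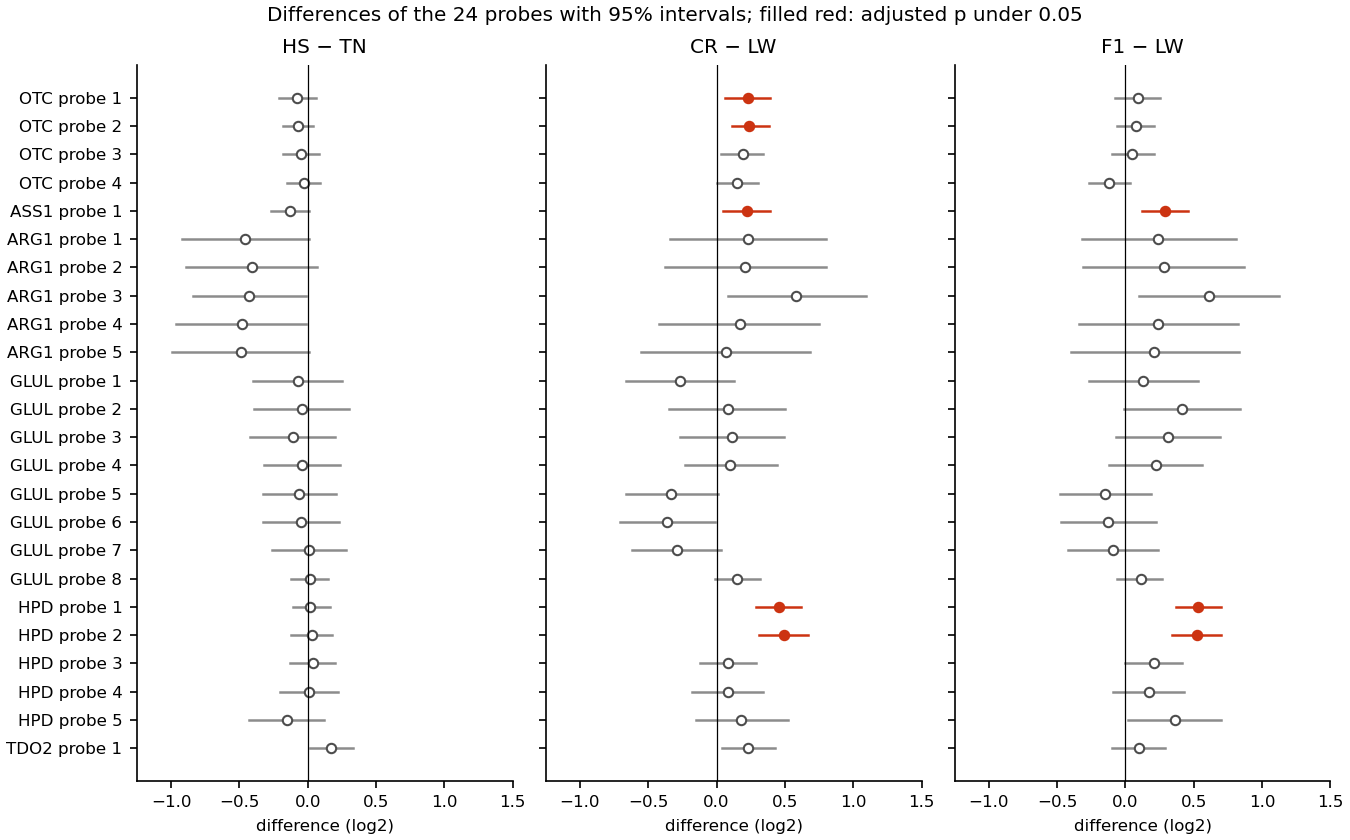
Difference in log2 signal (horizontal axis) of each of the 24 kept probes for HS minus TN, CR minus LW and F1 minus LW, with 95% intervals from the limma fit. Filled red points passed an adjusted p of 0.05: 0 probes for heat, 5 for CR minus LW (2 of OTC, 1 of ASS1, 2 of HPD) and 3 for F1 minus LW (1 of ASS1, 2 of HPD).

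Markers of macrophages and lymphocytes and of endothelial cells differed between the same breeds. Of 11 measured macrophage and lymphocyte markers, 7 were lower in CR than in LW and 0 higher, with a median difference of -0.56 against -0.01 over all named genes. Of 8 endothelial markers, 7 were lower in CR, with a median of -0.59. Of all named genes, 26.0% were called for CR compared with LW, 11.7% higher and 14.3% lower in CR. The mean signal of the macrophage and lymphocyte list lay between 10.34 and 10.78 in LW animals, between 9.81 and 10.21 in CR and between 9.83 and 10.52 in F1. The endothelial list lay between 9.58 and 10.19 in LW, 9.22 and 9.73 in CR and 9.26 and 9.91 in F1. In F1 compared with LW, 6 of 11 and 5 of 8 of these markers were lower, against 10.1% of all named genes. Among zonal markers, 0 of 7 periportal and 1 of 8 pericentral genes were called for CR compared with LW, the latter higher. Of 10 hepatocyte markers, 3 were lower in CR than in LW and the median difference was -0.01. Of 6 cholangiocyte markers, 1 was higher and 0 lower in CR (median difference 0.07). Of 8 stellate and fibroblast markers, 0 were higher and 1 lower (median -0.26), and of 5 red cell markers 1 was higher and 0 lower. In whole liver, fewer cells of a type and less RNA per cell cannot be told apart, and the part of these markers in the breed differences of OTC, ASS1 and HPD was not tested. None of the marker lists held a called gene for HS compared with TN.

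OTC (chrX:34322398-34391711, Sscrofa11.1) condenses ornithine and carbamoyl phosphate to citrulline in mitochondria. The signal of its probe 1 was lowest, median and highest at 14.02, 14.57 and 14.93 in the 12 LW animals, at 14.43, 14.87 and 15.03 in CR, and at 14.4, 14.69 and 14.82 in F1. The breeds overlapped, but 10 of 12 CR animals lay above the LW mean. CR exceeded LW by 0.23 ± 0.0807 (SE) on the log2 scale, a fold of 1.17 (adjusted p = 0.0342 in limma). F1 differed from LW by 0.09 ± 0.0807, which did not pass (adjusted p = 0.49). Probe 2 was also called in CR (0.24, adjusted p = 0.00612), but it shares a run of 53 bases with probe 1 and is no independent sequence. The other 2 probes differed by 0.19 and 0.15 in the same direction and did not pass (adjusted p = 0.0693 and 0.132). The call of probe 1 was lost in 16 of 53 alternatives, among them the processed signal, the authors' log2 table and leaving out slide 3, 4 or 5. Without the 5 animals that lay with another breed, OTC probe 1, CR minus LW, gave 0.28 (adjusted p = 0.00895 in limma), and OTC probe 3, CR minus LW, passed at 0.21 (adjusted p = 0.0377). Under heat OTC differed by -0.08 (95% interval -0.21 to 0.06).

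ASS1 (chr1:270531434-270586364) joins citrulline and aspartate and was measured by 1 probe. The 12 LW animals were lowest, median and highest at 16.73, 17.3 and 17.63 on the log2 scale, the CR animals at 17.21, 17.48 and 17.83, and the F1 animals at 17.14, 17.55 and 17.87. Of 12 animals, 11 in CR and 11 in F1 lay above the LW mean, and the ranges overlapped. F1 exceeded LW by 0.29 ± 0.0843 (SE), a fold of 1.22 (adjusted p = 0.0169 in limma), and this call was lost in 1 of 53 alternatives, without slide 4. CR exceeded LW by 0.22 ± 0.0843, with an adjusted p of 0.0484 that was lost in 32 of 53 alternatives. Without the 5 animals that lay with another breed, ASS1 probe 1, F1 minus LW, gave 0.26 (adjusted p = 0.0384 in limma) and ASS1 probe 1, CR minus LW, gave 0.23 (adjusted p = 0.0495). Within slides, the difference of CR from LW lay between 0.02 and 0.49 and that of F1 from LW between -0.04 and 0.83. Under heat the difference was -0.13 (95% interval -0.27 to 0.01, adjusted p = 0.41), and 4 of 18 HS animals lay above the TN mean of their breed.

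ARG1 (chr1:32006035-32028983), which splits arginine into urea and ornithine, had the widest span between animals of the 6 genes. The signal of probe 1 ran from 12.92 to 16.5, a 12-fold span, and that of probe 5 was 16.2-fold. The 5 probes moved together over the 36 arrays (pairwise Pearson r 0.875 to 0.991). The highest animal on probe 1 was F1 TN replicate 3, one of the animals that lay with another breed. In LW, TN animals were lowest, median and highest at 13.46, 14.34 and 14.85 and HS animals at 12.92, 13.48 and 14.51. In F1 the TN animals lay at 13.67, 14.18 and 16.5 and the HS animals at 13.0, 13.61 and 14.55. In CR the TN animals lay at 13.32, 13.73 and 15.13 and the HS animals at 13.27, 14.31 and 14.84. Of the lowest, median and highest values in CR, the median alone was higher in HS. TN and HS overlapped in every breed.

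HS minus TN for ARG1 was -0.46 (95% interval -0.92 to 0.01, adjusted p = 0.39), and all 5 probes had a negative difference, between -0.49 and -0.41. By breed the value was -0.68 within LW, 0.18 within CR and -0.87 within F1, and the interaction was not called (lowest adjusted p over the 24 probes 0.995). Only 5 of 18 HS animals lay above the TN mean of their breed, and the difference was below 0 within each of the 5 slides (-0.9 to -0.09). Without F1 TN replicate 3 the value was -0.32 over all breeds and -0.48 within F1. The interval allows a fold between 0.529 and 1.0. Breeds differed by 0.23 (CR minus LW) and 0.24 (F1 minus LW) on probe 1, neither called. Without F1 TN replicate 3 the value for ARG1 probe 1, F1 minus LW, was 0.04, and without the 5 animals that lay with another breed the folds were 1.28 (CR) and 1.09 (F1). ARG1 probe 3 had the highest differences of the 24 probes, 0.58 for CR minus LW (fold 1.5, adjusted p = 0.0812 in limma) and 0.61 for F1 minus LW (fold 1.53, adjusted p = 0.0842), and neither passed. For CR it was called with array weights, with slide as a block and without the 5 animals (fold 1.69), among others.

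GLUL (chr9:123751551-123762575), the glutamine synthetase of pericentral hepatocytes, was measured by 8 probes, 7 of them above background on all arrays and 1 on 15 arrays. On probe 1 the LW animals were lowest, median and highest at 12.73, 13.36 and 14.31, those of CR at 12.3, 13.19 and 14.17, and those of F1 at 12.66, 13.5 and 14.18, and the breeds overlapped. With all animals, 0 of 8 probes were called for breed or temperature. Without the 5 animals that lay with another breed, GLUL probe 6 was called lower in CR (fold 0.767) and GLUL probe 2 higher in F1 (fold 1.51) than in LW, and probe 1 had folds of 0.851 and 1.18 with no call. For CR minus LW, GLUL probe 6 was also called without LW TN replicate 1, and GLUL probe 8 without LW TN replicate 6. With all animals probe 6 differed by -0.36 and probe 8, the one above background on 15 arrays, by 0.15. The probes disagreed on CR compared with LW: probes 1, 5, 6 and 7 differed by -0.36 to -0.27 and probes 2, 3, 4 and 8 by 0.08 to 0.15. Probes 5 and 6 share 46 bases. HS minus TN was -0.07 on probe 1 (95% interval -0.4 to 0.25) and ran from -0.11 to 0.02 over the 8 probes.

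**Figure D2:**
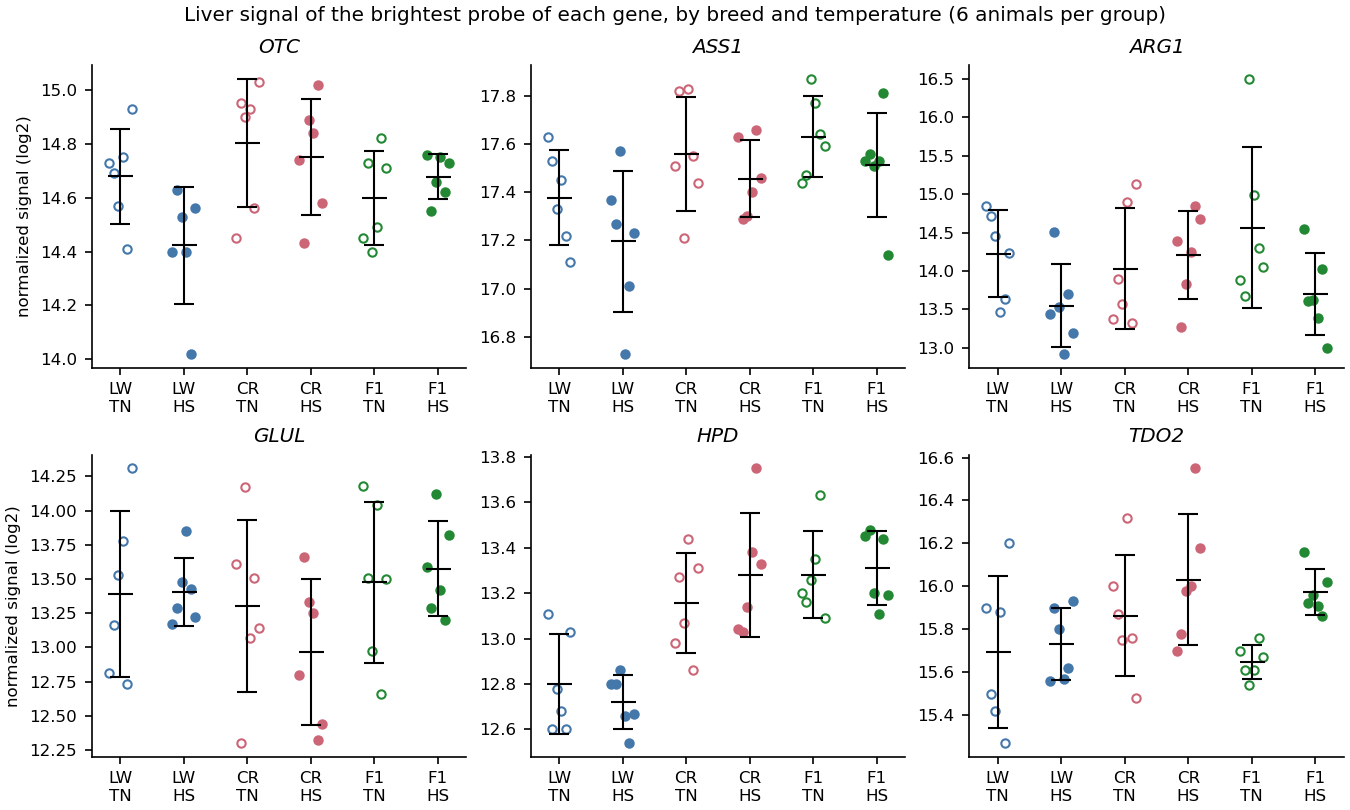
Normalized log2 signal (vertical axes, scaled per gene) of probe 1 of the 6 genes in each animal. Open points are TN and filled points HS, bars are the group mean ± SD of 6 animals. HPD lies higher in CR and F1 than in most LW animals, the single high ARG1 value of 16.5 is F1 TN replicate 3, and TDO2 in F1 shows TN at 15.54 to 15.76 and HS at 15.86 to 16.16.

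HPD (chr14:30845608-30857658) encodes 4-hydroxyphenylpyruvate dioxygenase, the second enzyme of tyrosine breakdown, and had the smallest adjusted p of the members for breed. Its 5 probes hold 4 different sequences, shown because the breed comparisons with LW were called on one of them and, with all animals, not on the others. Capitals mark the sequence on which the comparisons with LW were called with all animals, which is present at 2 places of the array under 2 probe names:
HPD probes 1 and 2: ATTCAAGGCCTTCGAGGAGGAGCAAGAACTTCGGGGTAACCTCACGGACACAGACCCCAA
HPD probe 3: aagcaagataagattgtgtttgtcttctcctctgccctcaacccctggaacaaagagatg
HPD probe 4: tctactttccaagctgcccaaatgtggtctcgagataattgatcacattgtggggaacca
HPD probe 5: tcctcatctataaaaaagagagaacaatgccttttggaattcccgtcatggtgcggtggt
The sequences are those of the deposited scanner tables, and their positions within the gene were not determined here.

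On probe 1 the LW animals were lowest, median and highest at 12.54, 12.73 and 13.11, the CR animals at 12.86, 13.21 and 13.75, and the F1 animals at 13.09, 13.23 and 13.63. Of 12 F1 animals 10 lay above the highest LW animal, as did 7 of 12 CR animals, and all 24 lay above the LW mean. The 2 highest LW animals, at 13.11 and 13.03, were TN replicates 1 and 6, which also lay apart from LW on the first principal component. CR exceeded LW by 0.46 ± 0.0816 (SE), a fold of 1.37 (95% interval 1.22 to 1.54, adjusted p = 0.000107 in limma). F1 exceeded LW by 0.53 ± 0.0816, a fold of 1.45 (1.29 to 1.62, adjusted p = 0.000102). F1 minus CR was 0.08 (95% interval -0.09 to 0.24). Both calls held in all 53 alternatives, with smaller values where all HPD probes were averaged to one value per gene (HPD probe 1, CR minus LW, 0.26 and HPD probe 1, F1 minus LW, 0.36). The difference was above 0 within each of the 5 slides (0.18 to 0.61 for CR, 0.35 to 0.75 for F1). Without the 5 animals that lay with another breed the differences were 0.52 and 0.57.

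F1 also exceeded the mean of LW and CR on probe 1, by 0.31 ± 0.0706 (SE, adjusted p = 0.0207). On probe 2, the same sequence, the value was 0.28 and did not pass (adjusted p = 0.0602). The probe 1 call was lost in the authors' log2 table, with 1 value per gene, and without slide 2, 3 or 4. For HS minus TN, HPD probe 1 gave 0.02 (95% interval -0.11 to 0.16).

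The 2 spots with the shared sequence gave like values in each animal: their difference had an SD of 0.0991 over 36 arrays, and r was 0.952. The 3 other HPD sequences differed between CR and LW by 0.08, 0.08 and 0.18 and between F1 and LW by 0.21, 0.17 and 0.36. None was called with all animals, but all differences had the same direction as those of probes 1 and 2. For F1 minus LW, 4 of the 5 HPD probes, among them probes 3 and 5, had an unadjusted p under 0.05 in limma. For CR minus LW this held for 2 of 5. HPD probe 5, F1 minus LW, was called at 0.44 without the 5 animals that lay with another breed and at 0.5 without slide 5. With all animals the signals of the 3 other sequences overlapped widely between breeds. Probe 3, for example, lay at 10.32 to 10.83 in LW, 10.24 to 11.16 in CR and 10.46 to 11.23 in F1. The difference between sequences is given as a description, with no test, since the probes were divided after their values were seen. For each animal the mean of probes 1 and 2 minus the mean of probes 3, 4 and 5 averaged 2.28 ± 0.11 over the 12 LW animals (SD), 2.64 ± 0.176 over 12 CR and 2.57 ± 0.202 over 12 F1 animals. The mean lay 0.36 higher in CR and 0.28 higher in F1 than in LW. In both groups 10 of 12 animals lay above the highest LW animal at 2.44. The 3 lowest F1 values, 2.05, 2.37 and 2.48, were those of TN replicate 3 and HS replicates 2 and 1, the F1 animals that lay with another breed. The cause of this difference between sequences was not tested.

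**Figure D3:**
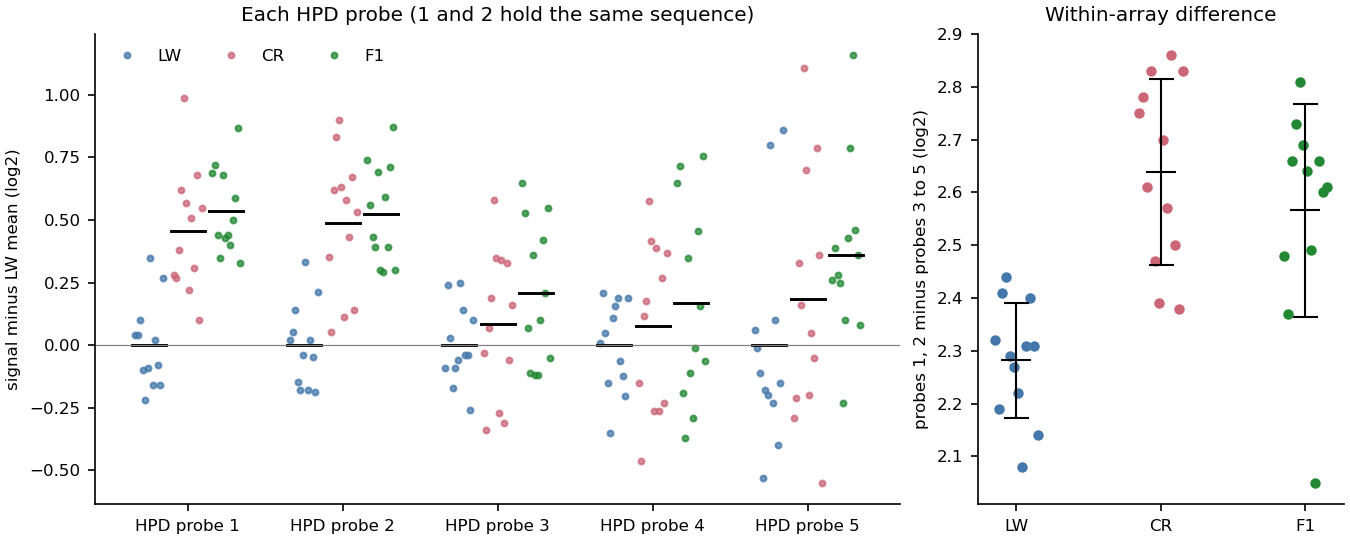
Left, log2 signal of each HPD probe minus its LW mean (vertical axis) in 12 animals per breed, with breed means as black lines. Right, mean of probes 1 and 2 minus mean of probes 3 to 5 within each array, with breed mean ± SD. The means are 2.28 (LW), 2.64 (CR) and 2.57 (F1).

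TDO2 (chr8:44708722-44725954), which starts tryptophan breakdown, was measured by 1 kept probe. The mean ± SD over 12 animals was 15.71 ± 0.264 for LW, 15.95 ± 0.293 for CR and 15.81 ± 0.19 for F1 on the log2 scale, with overlapping ranges. Under heat TDO2 had the lowest adjusted p of the 24 probes, which still did not pass: HS minus TN was 0.17 ± 0.0778 (SE), with an adjusted p of 0.308. Of 18 HS animals, 13 lay above the TN mean of their breed, and the difference was above 0 within each slide (0.01 to 0.39). In F1 the 6 TN animals lay at 15.54, 15.61, 15.61, 15.67, 15.7 and 15.76. The 6 HS animals lay at 15.86, 15.91, 15.92, 15.96, 16.02 and 16.16, with no overlap (0.32 ± 0.134, adjusted p = 0.436 within F1 in limma). How many of all probes showed no overlap within F1 was not counted, and these values are given as a description. In LW and CR the temperatures overlapped, with differences of 0.03 and 0.17, and whether F1 differs from them is covered by the interaction, which was not called. CR minus LW was 0.23 (adjusted p = 0.065) and passed in 10 of 53 alternatives, among them array weights and leaving out the 5 animals that lay with another breed (TDO2 probe 1, CR minus LW, 0.32).

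Other genes of amino acid breakdown gave a wider view of the same comparisons. Of 112 genes in 8 lists, 89 were measured by a kept probe. Under heat 2 of the 89 (2.25%) were called and both were lower in HS, against 0.945% of all named genes (0.41% higher and 0.535% lower). GCAT, which cleaves the threonine product 2-amino-3-ketobutyrate into glycine, fell by 0.41 on the log2 scale (SE 0.0724, adjusted p = 0.00462) and was called in all 54 alternatives. Its signal was lowest, median and highest at 12.04, 12.55 and 13.03 in the 18 TN animals and at 11.92, 12.14 and 12.66 in the 18 HS animals. AGMAT, annotated as agmatinase, was lower by 0.23 (fold 0.853, adjusted p = 0.024), a call lost in 4 of 54 alternatives.

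In CR compared with LW, 25 of the 89 genes were higher and 4 lower (32.6% called), against 26.0% of all named genes (11.7% higher and 14.3% lower). The median difference of the 89 genes was 0.14, against -0.01 over all named genes. In F1 compared with LW, 12 were higher and 3 lower (16.9%, against 17.4% of all named genes, 7.36% higher and 10.1% lower), with a median of 0.08. F1 was lower than CR at 4 and higher at 0 of the 89, against 1.8% of all named genes (0.891% higher and 0.909% lower). F1 was below the mean of the parent breeds at 1, against 1.21% (0.392% above and 0.82% below). The count for CR moved from 29 genes to 11 without slide 3 and to 42 without the 5 animals that lay with another breed. The count for F1 moved from 15 to 4 without slide 3. Shares of all named genes without these arrays are not given here, so a shift over the whole array cannot be told apart. The shares given above for all arrays stand beside the counts of single lists below, and all these counts describe the lists only. Values of a pathway gene are those of its brightest probe, and its other probes need not be called.

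Around the urea cycle, 4 of 12 measured genes were higher in CR than in LW. SLC7A2, a cationic amino acid transporter that brings arginine and ornithine into cells, was 2.08-fold higher in CR (1.06 ± 0.27 SE on the log2 scale, adjusted p = 0.00368) and 1.92-fold higher in F1 (adjusted p = 0.0146), on both of its probes. Its signal was lowest, median and highest at 10.54, 11.45 and 12.3 in LW, at 11.16, 12.86 and 13.78 in CR and at 11.31, 12.42 and 13.99 in F1. SLC25A15, the mitochondrial ornithine carrier, was 1.52-fold higher in CR and 1.58-fold higher in F1. SIRT5, a mitochondrial deacylase known to act on CPS1, was 1.16-fold higher in CR on 1 of its 3 probes. NAGS, which makes the activator of CPS1, was 1.49-fold higher in F1 than in LW on all 3 probes (adjusted p = 0.0152). The ornithine carrier lost its CR call without slide 3, as NAGS did for F1, and SLC7A2 lost its F1 call without slide 4.

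Among genes of ammonia and glutamine handling, 3 of 13 were higher in CR than in LW and 0 lower. ASPG, an asparaginase, was 1.7-fold higher in CR (adjusted p = 0.000356) and 1.62-fold higher in F1. GPT, alanine aminotransferase, was 1.18-fold higher in CR, called on 1 of its 2 probes. RHBG, an ammonia transporter of the hepatocyte and kidney membrane, was 1.56-fold higher in CR, called on 1 of its 3 probes. RHBG was lower in F1 than in CR (fold 0.56, adjusted p = 0.028). SLC38A4, an amino acid transporter of hepatocytes, was 1.51-fold higher in F1 than in LW, and ASNS, which makes asparagine, was lower (fold 0.778).

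In CR compared with LW, 3 of 7 other genes of phenylalanine and tyrosine breakdown were higher and 1 lower. QDPR, which regenerates the cofactor of phenylalanine hydroxylase, was 1.28-fold higher on its brightest probe, but 2 of its 4 probes had the opposite sign. GSTZ1, which acts 2 steps after HPD on maleylacetoacetate, was 1.1-fold higher on 1 probe with both other probes below 0 (a call lost in 16 of 53 alternatives), and GCHFR, a regulator of cofactor synthesis, was lower (fold 0.847). In F1 compared with LW 0 of the 7 were called. Of 6 genes of tryptophan breakdown, KYAT3, a kynurenine aminotransferase, was 1.34-fold higher in CR than in LW (adjusted p = 1.89e-06) and lower in F1 than in CR (fold 0.732, adjusted p = 1.62e-05). Median KYAT3 signals were 11.98 in LW, 12.44 in CR and 11.91 in F1, with the highest LW animal at 12.15 and the highest F1 animal at 12.19. F1 was also below the mean of the parent breeds (-0.24, adjusted p = 0.00941). IDO2, a second enzyme that opens the tryptophan ring, was lower in CR (fold 0.742).

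Of 13 genes of serine, glycine and threonine breakdown, 4 were higher in CR than in LW. The glycine-cleaving GLDC was 1.33-fold higher, called on 3 of its 4 probes, and SHMT1, which moves a carbon between serine and glycine, 1.19-fold. SARDH, which oxidizes sarcosine, was 1.19-fold higher and called on 1 of its 4 probes. Another SARDH probe differed by -0.16, and the call was lost with one value per gene and without slide 4. SDSL, annotated as a serine dehydratase, was 1.36-fold higher in F1 than in LW. Methionine and cysteine breakdown had 4 of 10 genes higher and 1 lower in CR. BHMT, which remethylates homocysteine with betaine, was 1.47-fold higher in CR (adjusted p = 2e-05 in limma), with CR animals at 16.38 to 16.83 and LW animals at 15.71 to 16.26. F1 animals lay at 15.7 to 16.61, below CR (fold 0.768, adjusted p = 0.0153). CSAD, an enzyme of taurine synthesis, was 1.67-fold higher in CR, whereas BHMT2 was lower in CR (fold 0.747) and in F1 (fold 0.678).

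Branched-chain amino acid breakdown had 2 of 17 genes higher in CR than in LW and 0 lower, the lowest share of the 8 lists. These were ACADSB, a dehydrogenase of the isoleucine pathway (1.27-fold, and lower in F1 than in CR at fold 0.792, lost in 13 of 53 alternatives), and PPM1K, the phosphatase that activates the branched-chain dehydrogenase (1.22-fold in CR and 1.24-fold in F1, lost in 16 and 11 of 53 alternatives). For histidine, lysine and proline, 4 of 11 genes were higher and 1 lower both in CR and in F1 compared with LW. The lysine enzymes ALDH7A1 (1.43-fold) and GCDH (1.34-fold) and UROC1, the urocanase of histidine breakdown (1.25-fold), were higher in CR. In F1 the lysine enzyme AASS (1.39-fold) and UROC1 (1.21-fold) were higher. Of 14 regulators of these pathways, NR3C1, the glucocorticoid receptor, was lower in CR (fold 0.835) and in F1 (fold 0.849), although 2 of its 4 probes had the opposite sign, and CEBPB was lower in CR (fold 0.733).

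**Figure D4:**
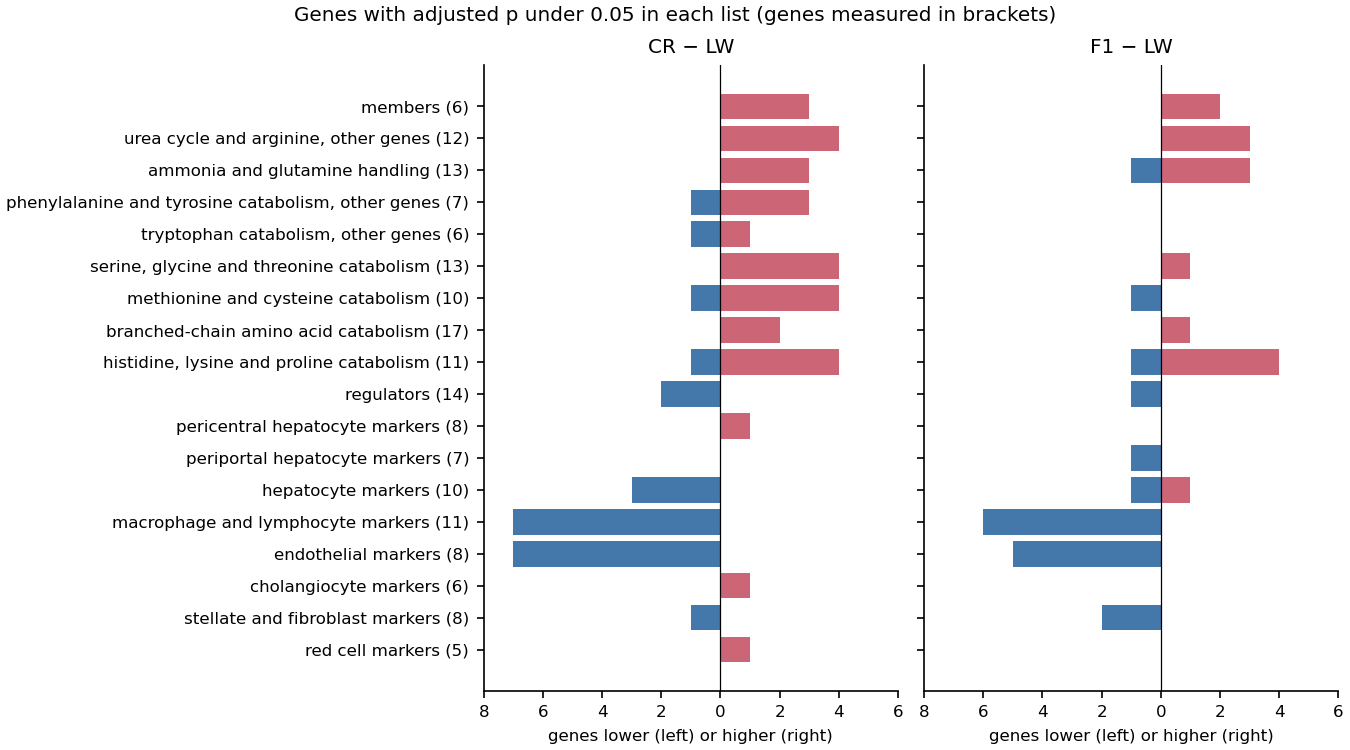
Number of genes per list whose brightest probe passed an adjusted p of 0.05 (horizontal axis, lower to the left in blue and higher to the right in red) for CR minus LW and F1 minus LW, with the number of genes measured in brackets. Amino acid lists hold mostly higher genes in CR, and the macrophage and lymphocyte (7 of 11) and endothelial lists (7 of 8) hold lower genes. Of all named genes, 11.7% were higher and 14.3% lower in CR than in LW.

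Across the 36 animals, with the 6 group means removed, the members did not all vary together. These correlations are descriptions, with no test, of animals that share slides, litters and killing days. ASS1 and GLUL ran in opposite directions (Pearson r = -0.579, Spearman rho = -0.608), and r was -0.578 without the 2 animals farthest from the ASS1 median and -0.624 within slides. ARG1 and GLUL gave r = -0.406 and HPD and GLUL -0.386. HPD varied with TDO2 (r = 0.576), OTC (0.547) and ARG1 (0.508), and ASS1 with ARG1 (0.522). OTC and ASS1, consecutive enzymes of the urea cycle, gave r = 0.129.

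**Figure D5:**
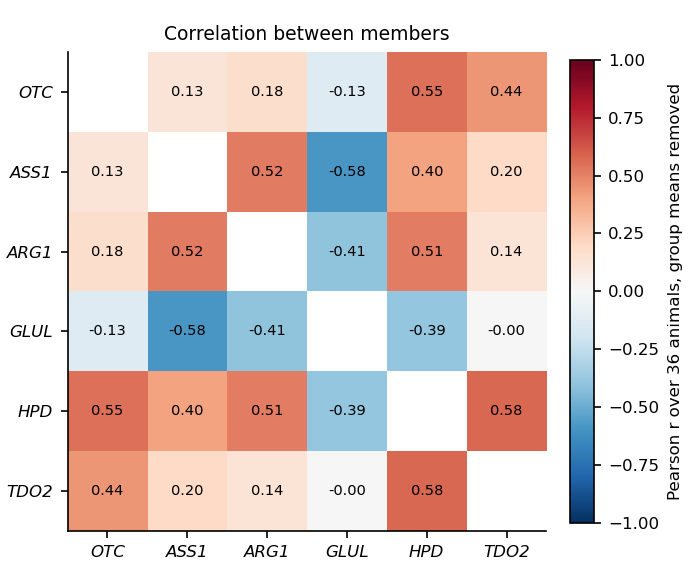
Pearson correlation of the residual log2 signals of probe 1 for each pair of the 6 genes over 36 animals after removal of the 6 group means. GLUL has a negative or near-zero value with each of the other genes, lowest with ASS1 (-0.579), and HPD has its highest value with TDO2 (0.576).

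The genes most like each member among 11218 others, by the same residual r over 36 arrays, were the following. For HPD they were HGD (0.771), GNMT (0.77) and GCDH (0.764). For ASS1 they were GOT1 (0.718), GLS2 (0.684) and PCOLCE2 (0.677), and for ARG1 EIF1AD (0.819), SDSL (0.791) and PPA1 (0.788). GLUL was most like ZNF687 (0.841), TLR3 (0.779) and C10ORF46 (0.739), OTC most like TRIM15 (0.736), HPRT1 (0.724) and RNF214 (0.711), and TDO2 most like TTC22 (0.69), CDC27 (0.622) and FAM214A (0.607). A highest value among so many genes is large by selection and is given only as a description.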

How the data were processed

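Liver RNA of 36 pigs was hybridised to 1-colour Agilent arrays. For every array the authors deposited the scanner output of Agilent Feature Extraction 10.10.1.1, which gives spot brightness as linear intensity. They also deposited a table of log2 values of 42051 probes, quantile normalized according to their methods. In that table each column's median lies between 7.656 and 7.659 and the 1st to 99th percentile of probe means runs from 7.55 to 7.8, so probes appear centred on a common value. Its centred values matched the scanner values (median r over arrays 0.981 over 42046 probes), so direction and log2 scale are shared.

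The median spot intensity was log2 transformed and quantile normalized over 60306 non-control spots, 107 non-uniform spots were set as missing, and 0 were saturated. Probes well above background on at least 6 arrays (44796 of 60305) entered limma 3.58.1 under R 4.3.3 (linear model with eBayes, two-sided, Benjamini-Hochberg over all kept probes, threshold 0.05), with additive terms for breed and temperature, and a means model of the 6 groups for the interaction and within-breed contrasts. Pen, slaughter day and parents, which the study's model holds, are not in the labels. The array median signal was 70 to 92 intensity units over a background of 18 to 25, and 39644 to 44025 spots were well above background. The number of arrays limits the precision. The fit was tested on simulated data.

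Gene names came from the files and the RefSeq gene table of Sscrofa11.1: 9328 spots by accession, 1586 by gene number, 14392 by symbol and 195 by synonym, while 1302 kept the file's name and the rest, control spots included, had none. All kept member probes are reported. Named besides are pathway genes whose brightest probe passed for heat, and at most the 3 with the smallest adjusted p per list and breed comparison, except 1 gene that is not reported here. Alternatives were the processed signal scaled to the 75th percentile, normexp with an offset of 50, the authors' table, the order of normalization, filters, slide and position blocks, array weights, a trended robust spread, no breed term, one value per gene, and leaving out arrays, slides or the 5 animals apart. Members and lists were chosen with earlier results of these data known.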

Additional observations from a re-analysis of the deposited data

How the results depend on the processing

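No member probe was called for heat, within a breed or for the interaction under any alternative run. Counts of member probes called moved as follows. The share of all probes called under each alternative is not given here, so these counts are descriptions only. For CR minus LW (5), the processed signal, the authors' log2 table and leaving out slide 4 gave 2, leaving out slide 3 gave 3, normexp, no dim filter and leaving out slide 5 gave 4, slide as a block and leaving out slide 1 or 2 gave 6, array weights gave 7, leaving out the 5 animals apart gave 9, and leaving out a single array gave 3 to 8. For F1 minus LW (3), leaving out the 5 animals apart gave 5, leaving out slide 5 or LW TN replicate 1 gave 4, and leaving out slide 4 gave 2. For F1 minus CR (0), array weights, leaving out the 5 animals apart, and leaving out slide 1 or 2 gave 1 (OTC probe 4), and leaving out a single array gave 0 to 1. For F1 minus the parent mean (1), the authors' table and leaving out slide 2, 3 or 4 gave 0, slide as a block and array weights gave 2, leaving out the 5 animals apart gave 3, and leaving out a single array gave 1 to 2. The cause was not tested.

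Signs turned for the following differences, none of them called except that of GSTZ1. ARG1 probe 1 turned to -0.08 for CR minus LW without slide 5, to -0.22 for F1 minus LW without slide 4, and within CR to -0.06 in the authors' table and -0.02 with slide as a block. GLUL probe 1 turned to 0.01 and 0.02 for heat without slides 3 and 5, and to -0.00055 for F1 minus LW without slide 2. HPD probe 1, HS minus TN, turned to -0.0028 with the processed signal and to -0.01 in the authors' table and with one value per gene, and ran from -0.01 to 0.05 when a single array was left out. HPD probes 3 and 4 turned to -0.0047 and -0.02 for CR minus LW without slide 5, and GSTZ1 to -0.03 with one value per gene. The HPD sequence difference was 0.35 and 0.26 with the processed signal and 0.34 and 0.36 without the 5 animals apart (CR and F1 minus LW), alternatives chosen after seeing the data. Of 44 calls of pathway genes chosen by the naming rule, 9 held in every alternative, 35 were lost in at least 1 and 4 in more than 10 (GSTZ1, PPM1K in both comparisons with LW, and ACADSB in F1 minus CR). No paired analysis was possible because each animal gave a single liver sample and the labels do not name the litter.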
